A study of Mus musculus with 2 samples.

Results

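Regulatory-like T cells were chosen by the messages they carried, in whole-lung single-cell data from 2 mouse libraries. A T cell was a cell with at least 1 UMI (unique molecular identifier, 1 counted mRNA molecule) of 2 or more of Cd3d, Cd3e, Cd3g and Trac, which encode the invariant chains and the alpha constant region of the T cell receptor. A member also had no UMI of Cd8a or Cd8b1 and either a Foxp3 UMI or UMIs of at least 2 of Il2ra, Ctla4 and Ikzf2. Members carried no UMI of the B cell gene Cd79a or the macrophage gene Marco. The rule found 64 cells among 509 T cells and 4688 cells that had at least 200 genes and at most 15% mitochondrial UMIs. Of the 64, 48 came from the library titled injured and 16 from the library titled control, which held 204 and 305 T cells.

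The libraries were made from collagenase digests of whole lungs of C57BL/6 mice that carry an isoleucine to threonine mutant of surfactant protein C, a product of alveolar type 2 epithelial cells. Both groups carried the mutant gene, so neither is wild type. Per the labels' protocols, 1 oral dose of tamoxifen (175 mg/kg in corn oil) removes a neomycin cassette and raises mutant expression, and the series compares a steady state with 14 days after injury. The library titled injured is tagged untreated and the library titled control is tagged tamoxifen treated. The groups here follow the titles, and each direction between libraries rests on them. Each group had 1 library, and the sources used here do not give the number of mice in it, so no test across animals was possible. Intervals below are exact 95% intervals that cover counting error only.

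Regulatory T cells are a CD4 lineage that restrains other immune cells and is specified by the transcription factor FOXP3. They take up interleukin 2 through a high-affinity receptor that includes CD25 (Il2ra), block costimulation through CTLA4, and in mice often carry Helios (Ikzf2). In barrier tissues such as lung, many activated regulatory T cells carry the interleukin 33 receptor ST2 and supply suppressive and repair signals.

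The label was checked separately for the members with and without Foxp3. In the injured library 30 members had a Foxp3 UMI and 18 entered through the other 3 genes. Among control members, 7 had Foxp3 and 9 did not. Foxp3 lies at chromosome X, 7573644 to 7595245, in GRCm38. Of the 30 Foxp3 members of the injured library, 29 also had Ikzf2, 26 had Ctla4, 21 had Il2ra and 20 had Cd4, and 4 of the 7 control Foxp3 members had Cd4. Foxp3 UMIs per cell in them ran from 1 through a median of 4.5 to 14. In the 7 control Foxp3 members the lowest and the median were 1 UMI and the highest was 4. The rule used each of these genes except Cd4, the co-receptor of the lineage. Among members without Foxp3, Cd4 had a UMI in 6 of 18 injured and 4 of 9 control cells. Outside the members, Cd4 had a UMI in 41 of 156 injured and 99 of 289 control T cells. Those T cells include the Cd8 cells that the rule bars from the members, so this comparison favours the members.

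Members without Foxp3 often carried gamma-delta T cell genes, which mark a separate T cell lineage. A UMI of Trdc, Tcrg-C1, Tcrg-C2, Tcrg-C4 or Cd163l1 was present in 12 of 18 such members of the injured library (66.7%, interval 40.99 to 86.7) and 3 of 9 in the control library. The same held for 1 of 30 and 0 of 7 Foxp3 members. Among T cells outside the members, 48 of 156 in the injured library had such a UMI (30.8%, interval 23.6 to 38.6). In the control library 26 of 289 did (interval 5.96 to 12.9). The intervals were apart in the injured library, and overlapped in the control library (7.49 to 70.1 for the 3 of 9). As 1 UMI sufficed, the criterion alone does not place a cell in that lineage. Tcrg-C1, the gamma chain constant region, had 43 UMIs in 11 of the 18 cells and none in the 30 Foxp3 cells. Counts of Tcrg-C1 and Tcrg-C2 are uncertain because the 2 genes are near-identical copies. The kinase Blk had 18 UMIs in 7 of the 18 cells and none in the Foxp3 cells, and the factor Zbtb16 had 14 and none. Il17a, a cytokine of such cells, had 9 UMIs in 2 of the 18 cells. In the 9 control members without Foxp3, Tcrg-C1 had 6 UMIs in 3 cells and Trdc had 34 UMIs in 2. The Foxp3 members and the members without Foxp3 are therefore given apart for many genes below. Other values pool them and need not hold for both.

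The rule left some similar cells out. Cells that met the regulatory gene part but had Cd8a or Cd8b1 numbered 8 in the injured library and 7 among control cells, and 7 and 0 were left out for Cd79a or Marco. Another 39 and 30 cells had exactly 1 of Il2ra, Ctla4 and Ikzf2 and so fell just short. Just inside the T cell threshold, 5 and 0 members had exactly 2 of the 4 T cell genes. Outside the rule, Foxp3 was present in 11 T cells of the injured library and in 2 control T cells. Those 11 cells held 51 Foxp3, 90 Ctla4, 148 Ikzf2, 68 Il2ra and 18 Cd4 UMIs. They carried 6 UMIs of Cd8b1 in 5 cells, none of Cd8a, and 44 of Marco in 7 cells, of which 36 were in 1 cell. They count among the other T cells below, and values without them in that comparator, an alternative chosen after seeing the data, are given where they matter.

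Members made up 23.5% of T cells in the injured library (48 of 204, interval 17.9 to 30.0) and 5.25% in the control library (16 of 305, interval 3.03 to 8.38). The intervals did not overlap. Foxp3 members alone were 14.7% (interval 10.1 to 20.3) and 2.30% (interval 0.928 to 4.67), and members without Foxp3 were 8.82% (interval 5.31 to 13.6) and 2.95% (interval 1.36 to 5.53). Any T cell with Foxp3, whether or not the rule kept it, was 20.1% of T cells (41 of 204, interval 14.8 to 26.3) in the injured library and 2.95% (9 of 305) in the control library. Against all cells the members were 2.05% (interval 1.51 to 2.704) and 0.683% (interval 0.391 to 1.11). Over the same denominator, T cells as a whole were 8.70% in the injured library and 13.0% in the control library. The members' share of T cells was thus higher in the library with the smaller share of T cells.

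**Figure D1:**
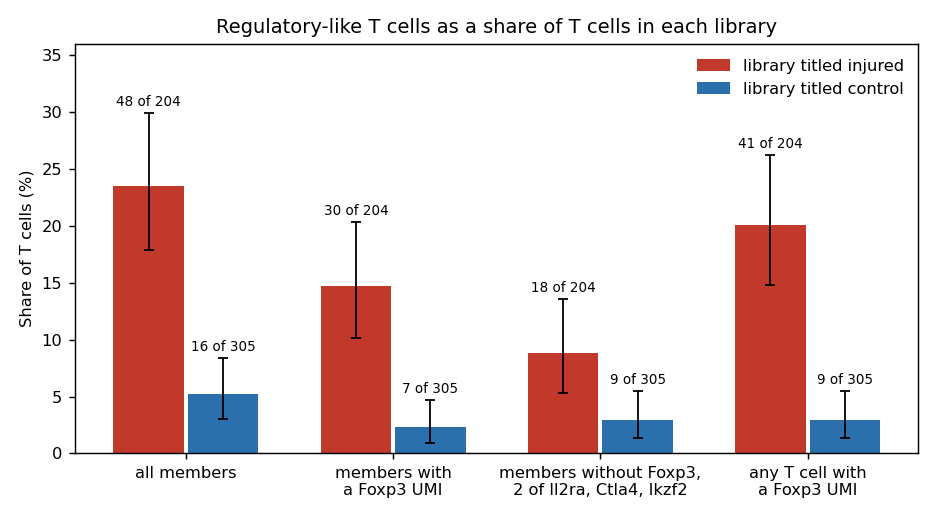
Share of T cells (%, y axis) in the injured and control libraries for all members, members with Foxp3, members without Foxp3 and any T cell with Foxp3; bars are 1 library each and lines are exact 95% binomial intervals for counting error. All members stand at 23.5% in the injured library and 5.25% in the control library.

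Depth was set beside these shares. Members had a median of 5934.5 UMIs in the injured library (2825 to 28510) and 5557.5 in the control library (2126 to 14018), while the other T cells had 4878 and 6001. The deeper other T cells were therefore in the control library. When every cell was thinned to 1000 UMIs and the rule was read again, 14 of 87 T cells (16.1%) and 5 of 179 (2.79%) met it. Cells of other types gave a background for Foxp3. It was at 0 in 59 and 323 B cells, and present in 15 of 2063 injured and 1 of 1940 control cells with no T cell gene, always as 1 UMI. All cells outside the T cell class had medians of 2978.5 and 4191 UMIs. The libraries shared 1 barcode, which was no member. Doublets were not removed from these values, and 1 of 48 injured and 0 of 16 control members were among the cells scored as doublet-like.

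Gene levels below are UMIs summed over the cells of a class in 1 library, scaled to counts per 1000000 UMIs of that class (CPM). The members summed to 368941 UMIs (injured) and 93814 (control), so 1 UMI was worth 2.71 and 10.7 CPM. Of the injured members, 3 of 48 had over 3 times the median UMIs and held 22.1% of the sum, so injured levels lean on them. No control member was so deep. A gene was called at 1.5-fold or more on CPM + 50, and only genes with at least 20 UMIs over the 2 classes compared were read. Of 6581 genes read in both libraries, members were higher than the other T cells in both for 143 (2.17%) and lower in both for 68 (1.03%). With median-of-ratios scaling in place of totals, 101 were higher and 109 lower. That scaling moved the centre of all genes by 0.15 (injured) and 0.21 (control) on the log2 scale. The rule chose the members within this contrast, so every value in it is a description.

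The 4 rule genes set the scale of the contrast. Foxp3 was at 393 CPM in members and 55.7 in other T cells of the injured library, and at 160 and 2.71 CPM in the control library. Il2ra was at 759 against 106 CPM and at 160 against 7.04. Ctla4 was at 851 against 118 CPM and at 512 against 24.4. Of its UMIs in members, 295 of 314 (injured) and 36 of 48 (control) were in Foxp3 members. Ikzf2 was at 1054 against 228 CPM, and at 1151 against 73.6 in control cells. Every Foxp3 UMI of the other T cells came from the 11 and 2 cells that the rule left out.

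A further list of 15 regulatory T cell genes, none of them in the rule, was higher in the members. In the injured library 11 of the 15 were read, 10 were called higher (5.83% of 7240 genes were) and the median log2 ratio was 1.02, beside 0.07 for all genes. In the control library 7 of 9 were called higher (9.69% of 7193 genes were) with a median of 1.61 beside 0.05. None was called lower in either library, where 2.82% and 4.37% of genes were. Ikzf4, which encodes the FOXP3 partner Eos, was at 130 CPM in members and 28.4 in other T cells of the injured library, 4.58-fold (interval 2.79 to 7.69), and at 74.6 and 4.87 CPM in the control library. Izumo1r, the folate receptor FR4, was at 114 against 30.6 CPM and at 107 against 27.1. Nrp1, a semaphorin receptor, was at 125 against 64.5 CPM (injured) and at 139 against 11.9 (control). Capg, an actin-capping protein, was at 366 against 158 CPM and at 426 against 88.3. All 4 stood higher in the members of both libraries. Tigit, a coinhibitory receptor, had 2 UMIs in the injured members and 0 in the control members, too few to compare.

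**Figure D2:**
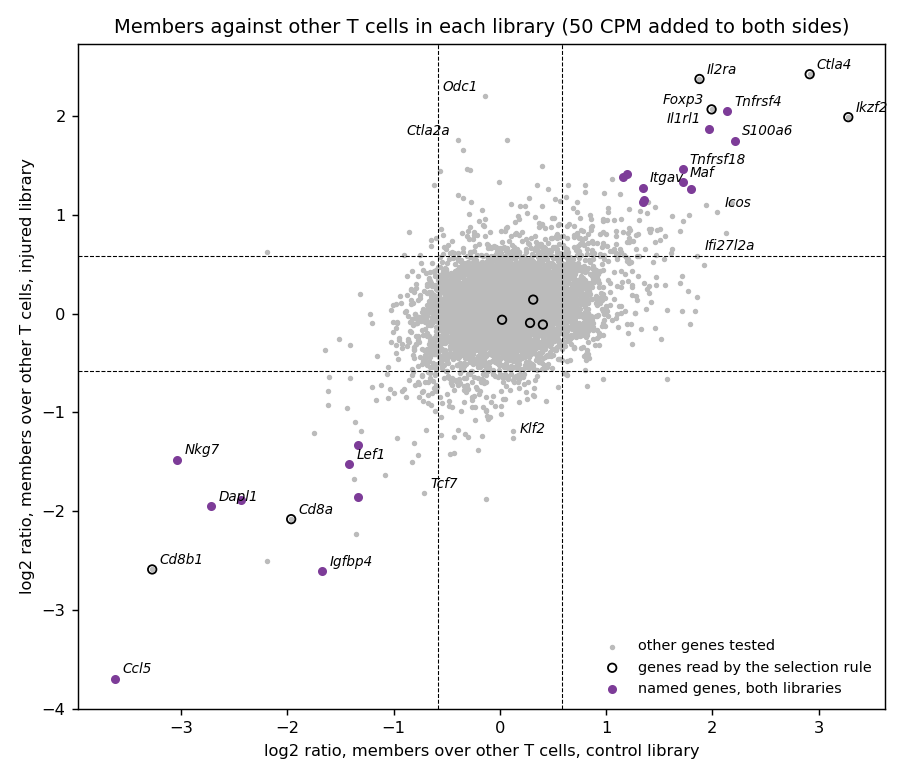
Log2 ratio of members to other T cells on CPM + 50 for every gene read in both libraries, control library on the x axis and injured library on the y axis; open circles are the rule's genes, purple points the named genes, dashed lines the 1.5-fold limit. Ctla4, Tnfrsf4, Foxp3, Ikzf2, Il2ra and Il1rl1 lie at the upper right and Ccl5, Cd8a and Cd8b1 at the lower left.

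In a list of 16 genes of the tumour necrosis factor receptor family and NF-kB, 9 of 15 read were called higher in injured members (median 0.70) and 10 of 14 in control members (median 0.81), 5 of them in both, and none was lower. Over all genes the shares called higher were 5.83%, 9.69% and 2.17% in both. Summed over the list, injured Foxp3 members were at 4824 CPM, members without Foxp3 at 1720 and other T cells at 1656. In the control library these sums were 5164, 2418 and 1139 CPM. The injured members without Foxp3 thus lay near the other T cells for this list. From the list, 3 costimulatory receptors are given here. Tnfrsf4 encodes OX40 and lies at chromosome 4, 156013843 to 156016612. It was at 653 CPM in injured members against 120 in other T cells (5.44-fold, interval 4.32 to 6.87) and at 277 against 24.4 in the control library (11.4-fold, interval 6.74 to 18.8). Nearly all of its UMIs were in Foxp3 members, with 238 of 241 in the injured library. Tnfrsf18, which encodes GITR, was at 461 against 135 CPM (3.40-fold, interval 2.68 to 4.32) and at 288 against 52.5 (5.48-fold, interval 3.44 to 8.47). Of its UMIs in members, 151 of 170 (injured) and 18 of 27 (control) were in Foxp3 members. Tnfrsf9, which encodes 4-1BB and is induced by activation, was at 417 against 74.3 CPM in the injured library (5.62-fold, interval 4.20 to 7.59). Of its 154 UMIs there, 153 were in 22 Foxp3 members. In the control library members had 0 UMIs of Tnfrsf9 and other T cells 3. Without the Foxp3-bearing cells among the other T cells, the injured log2 ratio went from 2.05 to 2.90 for Tnfrsf4 and from 1.91 to 2.81 for Tnfrsf9. Tnfrsf4 and Tnfrsf9 were found together in 20 of 48 injured members and 8 of 156 other T cells. In the control library 0 of 16 members and 1 of 289 other T cells had both. Icos, a further costimulator, was at 602 against 270 CPM and at 746 against 143, and the injured members with and without Foxp3 did not differ in it beyond counting error (569.7 and 664 CPM, ratio 0.858, interval 0.649 to 1.14).

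Genes of the tissue regulatory program were next. Il1rl1 encodes ST2 and lies at chromosome 1, 40429570 to 40465415. Foxp3 members of the injured library held 0 to 19 Il1rl1 UMIs per cell with a median of 3.5, and those of the control library 0 to 6 with a median of 1. Members were at 409 CPM against 75.4 in other T cells of the injured library (5.43-fold, interval 4.06 to 7.33) and at 181 against 9.20 in the control library (19.7-fold, interval 9.45 to 41.02). Foxp3 members carried 150 of the 151 UMIs in the injured library and all 17 in the control library. Of the 69 Il1rl1 UMIs in the other T cells of the injured library, 67 were in the Foxp3 cells the rule left out, and without those cells the log2 ratio went from 1.87 to 3.13. Other T cells with Cd4, and without Cd8, gamma-delta genes, Cd79a and Marco (23 and 79 cells), had 0 UMIs of Il1rl1, so Foxp3 members were at least 23.3-fold and 56.1-fold above them. ST2 is also a marker of group 2 innate lymphoid cells. Of 9 markers of those cells, 5 of 5 read were called higher in injured members and 2 of 2 in control members, where 5.83% and 9.69% of all genes were. The list summed to 905 CPM in injured members against 279 in other T cells, and to 576 against 104 CPM in control cells. Of the list, Il5, Calca and Kit were at 0 in all 64 members and Il13 had 1 UMI, while 41 of the 42 Arg1 UMIs of injured members were in 1 cell. It also holds Il1rl1, Gata3, Klrg1 and Areg, which regulatory T cells carry, and its part in the values of the tissue program was not tested. All but 1 of the members with Il1rl1 had Foxp3, with 21 of 22 in the injured library and 5 of 5 in the control library.

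Thinning did not remove the difference in Il1rl1. At 2000 UMIs per cell, 31.2% of injured and 18.8% of control members had an Il1rl1 UMI, against 3.85% and 1.083% of other T cells. Without thinning the shares were 45.8% and 31.2% of members against 6.41% and 1.73% of other T cells. B cells, which should lack ST2, had Il1rl1 in 0 of 59 and 2 of 323 cells. For Tnfrsf4 the thinned shares were 45.8% and 37.5% of members against 9.62% and 2.53% of other T cells, and the shares without thinning were 60.4% and 56.2% against 13.5% and 5.54%. Both receptors therefore marked more of the members at equal depth, in each library.

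The rest of the tissue program went the same way. Of 22 listed genes, 14 of 19 read in the injured library and 13 of 17 in the control library were called higher in members, with medians of 0.95 and 0.85 and none lower. Beside these counts, 5.83% and 9.69% of all genes were called higher. Maf, a transcription factor of effector and interleukin 10 producing T cells, was at 672 against 237 CPM (2.84-fold, interval 2.35 to 3.42) and at 245 against 39.5 (6.203-fold, interval 3.70 to 10.03). Unlike Il1rl1, Maf was shared by injured members with Foxp3 (648 CPM) and without it (720.2 CPM). Prdm1, which encodes Blimp-1, was at 125 against 40.4 CPM and at 95.9 against 8.66. Gata3, a regulator of type 2 responses that tissue regulatory T cells also use, was at 249 against 133 CPM and at 171 against 80.7. Outside the list, Itgav, the alpha-v integrin chain, was at 306 against 97.2 CPM (3.15-fold, interval 2.36 to 4.21) and at 128 against 20.03 (6.38-fold, interval 3.03 to 12.5). Klrg1, a receptor of terminally differentiated lymphocytes, had 32 UMIs in 12 injured members and 13 UMIs in 2 control members, and all but 1 UMI were in Foxp3 cells. Il1rl1 and Klrg1 occurred together in 11 of 48 injured and 2 of 16 control members.

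**Figure D3:**
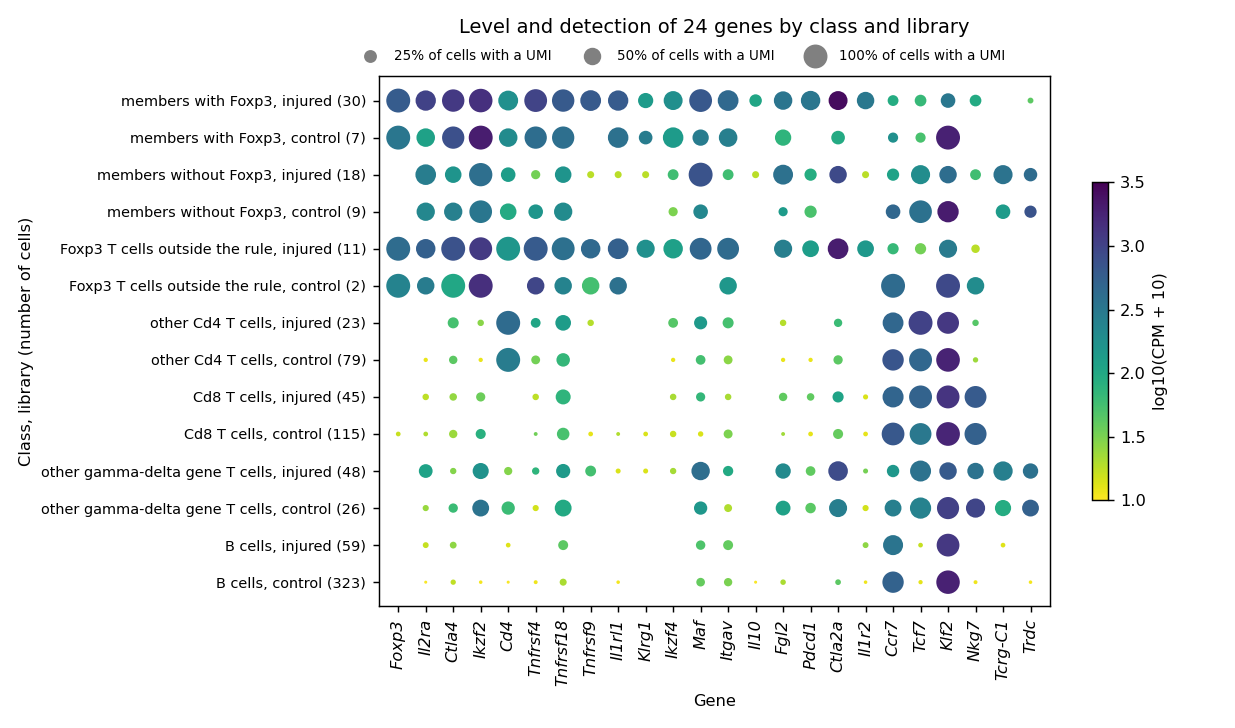
Levels of 24 genes (x axis) in 7 cell classes of the injured and control libraries (rows, with the number of cells); dot area is the percent of cells with a UMI and colour is log10 of CPM + 10. Il1rl1, Tnfrsf4 and Ikzf4 show in the rows of members with Foxp3 of both libraries. Tnfrsf9 and Il10 show in that of the injured library and not in that of the control library. Tcrg-C1 shows in the rows of members without Foxp3 and of other T cells with a gamma-delta gene.

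Messages for suppressive mediators were higher per UMI in the members than in other T cells. Summed over the list they were at 1325 CPM in injured members, 475 in other T cells and 489 in non-T cells of that library, and at 458, 178 and 496 CPM in control cells. Of 13 listed genes, 8 were read in the injured library and 6 were called higher in members (median 0.98), where 5.83% of all genes were. In the control library 2 of 4 were (median 0.47), beside 9.69% of all genes. Il10, an anti-inflammatory cytokine, had 25 UMIs in 8 of 48 injured members and 0 in the 156 other T cells, at least 20.7-fold higher. Of the 25, 24 were in 7 Foxp3 members and 14 were in 1 cell. Itgb8, the integrin chain that pairs with alpha-v to release active TGF-beta, had 23 UMIs in 11 injured members and 2 UMIs in other T cells (28.5-fold, interval 7.05 to 249.6). Ebi3, a subunit of interleukin 27 and interleukin 35, had 27 UMIs in 10 injured members, all with Foxp3, and 5 in other T cells (13.4-fold, interval 5.09 to 44.5). In the control library the 16 members had 0 UMIs of Il10 and Itgb8 and 2 of Ebi3. At 10.7 CPM per UMI, the 3 UMIs that a count of 0 allows are 32.0 CPM. The 67.8 CPM of Il10 and 62.3 CPM of Itgb8 in the injured members lay above this, but by few UMIs at the control depth. For Il10 the injured level also leaned on the 1 cell with 14 UMIs.

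Other mediators were measured more deeply. Fgl2, a secreted suppressor of T cell responses, was at 342 CPM in injured members against 103 in other T cells (3.33-fold, interval 2.53 to 4.39) and at 95.9 against 20.03 in the control library (4.79-fold, interval 2.03 to 10.1). It was at 328 CPM in members with Foxp3 and 368 in those without, so it did not separate these members. Pdcd1, which encodes the inhibitory receptor PD-1, was at 239 against 33.9 CPM in the injured library (7.04-fold, interval 4.63 to 10.98). Of the 88 UMIs of Pdcd1 in injured members, 78 were in Foxp3 members. The control members had 2 UMIs of it. Tgfb1, which encodes TGF-beta 1, was at 190 against 165 CPM (1.15-fold, interval 0.854 to 1.54) and at 85.3 against 92.0, within counting error in each library. Areg, the repair factor amphiregulin, had 16 UMIs in 3 injured members and 8 in 2 control members. Of the 16, 10 were in 1 cell without Foxp3 that had 26120 UMIs in all and 15 UMIs of the epithelial gene Epcam, so Areg gave no picture of the class.

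Receptors for migration showed no common direction. Of 18 listed, 3 of 13 read were called higher and 2 lower in injured members, and 4 and 2 of 14 in control members. Over all genes, 5.83% were higher and 2.82% lower in injured members, and 9.69% and 4.37% in control members. The list summed to 1578 CPM with Foxp3 and 1752 without it in injured members. Ccr2, a receptor for monocyte chemoattractants, was at 434 against 176 CPM (2.47-fold, interval 1.97 to 3.09), and at 405 against 68.2 in control cells (5.94-fold, interval 4.02 to 8.59). Ccr6, the CCL20 receptor, was at 125 against 25.1 CPM and at 64.0 against 7.58. Ccr8, a receptor of tissue regulatory T cells, had 6 UMIs in 6 injured members and none in the control members. Cxcr6, which lung-resident lymphocytes use, was at 432 and 467 CPM in members without Foxp3 and at 69.7 and 0 CPM in Foxp3 members, injured and control. Members over other T cells for Cxcr6 turned lower when the T cells with a gamma-delta gene were left out, in the control library (log2 -0.71).

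Genes of resting and circulating T cells were lower in the members. Of 14 resting genes, 11 of 13 read in the injured library were called lower in members (median -1.31) and 8 of 14 in the control library were (median -0.66), with none higher. Beside these counts, 2.82% and 4.37% of all genes were called lower. Tcf7, the factor TCF-1 of naive and memory cells, was at 100 against 480 CPM (ratio 0.209, interval 0.145 to 0.293) and at 203 against 365 (ratio 0.554, interval 0.332 to 0.872). Lef1, its relative, was at 59.6 against 265 CPM and at 171 against 540. Ccr7, a chemokine receptor that directs cells into lymph nodes, was at 89.4 against 296 CPM (ratio 0.302, interval 0.204 to 0.435) and at 319.8 against 596 (ratio 0.536, interval 0.3602 to 0.770). Dapl1 was at 0 in all 64 members, at least 17.6-fold and 8.70-fold below the other T cells.

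Cytotoxic genes were lower too, in a contrast where the rule bars CD8 cells and the comparator holds them. Ccl5, a chemokine of effector CD8 and natural killer cells, was at 46.1 CPM in injured members against 1195 in other T cells (ratio 0.0385, interval 0.0224 to 0.0620) and at 53.3 against 1222 in the control library (ratio 0.0436, interval 0.0141 to 0.102). Nkg7, a granule protein, was at 73.2 against 294 CPM in the injured library. In the control members it was at 0 against 361 CPM, at least 11.3-fold lower. Set against other Cd4 T cells alone, Ccl5 was at 32.8 CPM in Foxp3 members and 106 in the injured library, and at 107 and 106 CPM in the control library.

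The other Cd4 T cells are the nearer comparator for the resting genes, and these were still lower in Foxp3 members. Tcf7 was at 57.4 CPM in Foxp3 members and 995 in other Cd4 cells of the injured library (ratio 0.0577, interval 0.0305 to 0.101), and at 42.9 and 463 CPM in the control library (ratio 0.0925, interval 0.0111 to 0.338). Igfbp4, a growth factor binding protein of naive CD4 cells, had 0 UMIs in Foxp3 members of either library and 48 and 142 in the other Cd4 cells. Bcl2, a survival factor, was at 86.1 CPM against 1013 in the injured library (ratio 0.0850, interval 0.0507 to 0.136) and had 1 UMI in Foxp3 members against 405 CPM in the control library. Members without Foxp3 kept Bcl2 at 664 and 573 CPM. Among the members, low Bcl2 thus went with Foxp3.

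In medians over cells the Foxp3 members were highest for the regulatory genes outside the rule, and single cells of the classes overlapped. The summed level of the 15 regulatory genes outside the rule had a median of 4123 CPM per cell in injured Foxp3 members (477 to 9315) and 3652 in control Foxp3 members (1602 to 7526). In members without Foxp3 the medians were 1904 and 1180 CPM, beside 1300 and 1071 CPM in the other T cells with a gamma-delta gene. Other Cd4 T cells had medians of 717 and 224 CPM and Cd8 T cells 285 and 200.2. The tissue program gave medians of 12256 and 8539 CPM in Foxp3 members and 6612 and 3541 in members without Foxp3. Other T cells with a gamma-delta gene had 4953 and 3362 CPM, and other Cd4 T cells 1559 and 878.

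**Figure D4:**
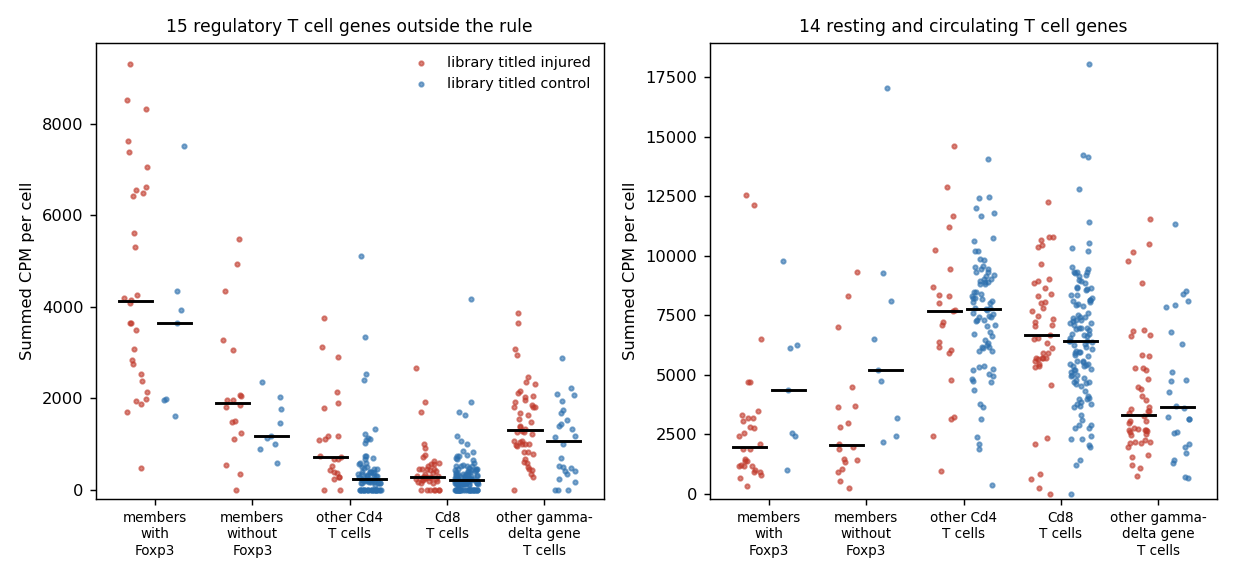
Summed CPM per cell of 15 regulatory T cell genes outside the rule (left) and of 14 resting and circulating T cell genes (right) in 5 classes of T cells, by library; each point is 1 cell and each bar the class median. Foxp3 members have the highest medians on the left, 4123 CPM (injured) and 3652 CPM (control), and on the right the injured Foxp3 members lie at 1990 CPM and the control ones at 4383.

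A view that used no rule gene gave a like order. Among the 10 nearest T cells of each injured Foxp3 member, by 1000 variable genes without those of the rule, 56.3% were members, against 23.5% of all T cells of that library. For members without Foxp3 the figure was 23.9%, close to that overall share. In the control library the values were 25.7% and 11.1%, against 5.25% of all T cells. The neighbours come from the same cells that the rule sorted, and this is a description.

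Injured members were next set against control members. Of 3921 genes read, 809 (20.6%) were called higher and 277 (7.06%) lower in injured members. With median-of-ratios scaling 620 were higher and 460 lower, since that scaling moved the centre by 0.19 on the log2 scale. In the other T cells 4.54% and 0.849% of 8484 genes were called. Of 3881 genes read in both classes, 612 (15.8%) were past the limit upward in members and not in other T cells, and 245 (6.31%) were so downward. With 16 control members, the interval of many single genes spans 1.5-fold. The mix of the classes also differed, since 62.5% of injured and 43.8% of control members had Foxp3. How much of a difference between libraries comes from the mix was not tested, except where Foxp3 members are given alone.

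The genes named next had high ratios in injured members, and most were among the 10 highest. The fixed lists were mixed. The T cell receptor response list had 1 gene higher and 2 lower of 6 read (median -0.34), and the TNF receptor and NF-kB list 6 higher and 3 lower of 14 (median 0.22). Glycolysis and hypoxia genes had 3 of 8 higher (median 0.53), and interleukin 2 receptor and STAT5 targets 4 of 12 (median 0.24). Neither list had a gene lower. Beside these stand 20.6% of all genes higher and 7.06% lower. Ctla2a, a cysteine protease inhibitor first found in activated T cells, lies at chromosome 13, 60934155 to 60936625. It was at 2044 CPM in injured members, in 27 of 48 cells, and at 42.6 in control members, in 2 of 16 (47.9-fold, interval 18.6 to 176). In other T cells Ctla2a was at 571 and 72.0 CPM (7.93-fold, interval 6.55 to 9.67), and in Foxp3 members alone it was at 2648 and 85.7 CPM. Ctla2b, its close paralog, had 63 and 0 UMIs in members, and counts of the 2 may be split. Tnfrsf9 had 154 UMIs in injured and 0 in control members, at least 13.1-fold higher, and 27.1% of injured against 0% of control members had it after thinning to 2000 UMIs (47.9% and 0% without thinning). In other T cells Tnfrsf9 was 45.7-fold higher in the injured library (interval 15.003 to 227), and 55 of the 68 UMIs there were in Foxp3 cells that the rule left out. Both genes were thus higher in the injured library within members and within other T cells.

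Several other genes had the same direction. Odc1, the first enzyme of polyamine synthesis, was at 678 CPM in injured and 53.3 in control members (12.7-fold, interval 5.38 to 39.5), against 1.69-fold in other T cells (interval 1.28 to 2.23). Pdcd1 had 88 UMIs in injured and 2 in control members (11.2-fold, interval 3.01 to 93.8). Il1r2, the decoy receptor for interleukin 1, had 75 UMIs in injured members, 74 of them in Foxp3 cells, and 0 in control members, at least 6.36-fold higher. Pmepa1, a feedback inhibitor of TGF-beta signalling, had 110 and 0 UMIs, at least 9.32-fold higher. Cish, a feedback inhibitor of interleukin 2 signalling, had 97 UMIs in 33 injured members and 1 in control members (24.7-fold, interval 4.32 to 984). Pkm, the glycolytic enzyme pyruvate kinase, was at 548 and 171 CPM (3.21-fold, interval 1.93 to 5.72), against 1.47-fold in other T cells. For Odc1 and Pkm the interval in members lay wholly above the ratio in other T cells, but the difference between the 2 classes was not tested.

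Another 3 genes among the 10 highest ratios rested on single cells. Of the injured members, 1 cell held 94.0% of the Cd24a UMIs, 1 held 97.1% of the Wfdc2 UMIs and 1 held 64.1% of the Cxcl2 UMIs. Cd24a and Wfdc2 are also epithelial genes, and both turned lower than in other T cells when Foxp3 was required.

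The rule genes are given as levels, since their UMIs chose the cells. Among Foxp3 members Foxp3 was at 594 CPM (injured) and 321 CPM (control), Il2ra at 1008 and 107 CPM, and Ikzf2 at 1398 and 1993 CPM. Nothing is read from these.

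Of the 15 regulatory genes outside the rule, 6 of 11 read were higher in injured members, none was lower, and the median was 0.60 beside 0.14 for all genes. In other T cells 7 of 10 were higher and the median was 0.79, beside 0.12 for all genes. The other T cells included Foxp3 cells that the rule left out, 11 injured and 2 control, and medians without them are not given here. Tnfrsf4 was at 653 and 277 CPM in members (2.36-fold, interval 1.57 to 3.68), but when the rule was read after thinning its log2 ratio turned to -0.19. Il1rl1 was 2.26-fold higher (interval 1.36 to 3.98), and 1.69-fold in Foxp3 members alone (interval 1.02 to 2.97). Icos had a ratio of 0.806 (interval 0.614 to 1.071), so it was not separated between libraries. The suppressive list had 6 of 7 genes higher in members (median 0.88), with Fgl2 at 3.56-fold (interval 1.82 to 7.97). It also rose in other T cells, with 3 of 5 genes higher (median 0.60). The shares of all genes called higher were 20.6% in members and 4.54% in other T cells.

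Resting genes and an interferon-induced gene were lower in the injured members. Of 10 resting genes read, 7 were lower and none higher (median -0.88), beside 5 of 14 lower in other T cells (median -0.13). The shares of all genes called lower were 7.06% in members and 0.849% in other T cells. Klf2, the factor that keeps T cells quiescent and circulating, lies at chromosome 8, 72319033 to 72321656. It was at 342 CPM in injured and 1940 in control members (ratio 0.176, interval 0.139 to 0.222), and at 888 and 1781 CPM in other T cells (ratio 0.499, interval 0.461 to 0.539). In Foxp3 members alone Klf2 was at 312 and 1864 CPM. After thinning, 27.1% of injured and 81.2% of control members had a Klf2 UMI, against 61.5% and 88.1% of other T cells (without thinning 39.6% and 87.5%, against 73.1% and 95.2%). Members and other T cells therefore carried Klf2 at like levels in the control library and at unlike levels in the injured one.

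Ifi27l2a, an interferon-induced mitochondrial protein, was at 187 CPM in injured and 2324 in control members (ratio 0.0805, interval 0.0605 to 0.106), and at 108 and 605 CPM in other T cells (ratio 0.179, interval 0.144 to 0.220). Of the 218 UMIs of Ifi27l2a in control members, 186 were in the 7 Foxp3 cells. The interferon list as a whole had 2 of 6 genes lower in members (median -0.16), where 7.06% of all genes were. Ms4a4b, a membrane protein of T cells, was at 247 and 1535 CPM in members (ratio 0.161, interval 0.122 to 0.210), and at 1043 and 1687 CPM in other T cells.

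Some genes of the early response were lower in injured members while the other T cells of the 2 libraries lay close together. Tnfaip3, which encodes the NF-kB inhibitor A20, was at 198 CPM in injured and 810 in control members (ratio 0.244, interval 0.175 to 0.341), and at 193 and 191 CPM in other T cells (ratio 1.01, interval 0.842 to 1.22). Junb, an AP-1 factor, was at 1136 and 2569 CPM in members (ratio 0.442, interval 0.376 to 0.520) and at 861 and 748 CPM in other T cells (ratio 1.15, interval 1.05 to 1.26). Such genes also respond to tissue digestion. Of 13 immediate early and heat shock genes read, 4 were lower and 1 higher in injured members (median -0.28), and in other T cells 0 of 14 were lower and 1 was higher. Over all genes, 7.06% were lower in members and 0.849% in other T cells. The part of digestion in these values was not tested.

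**Figure D5:**
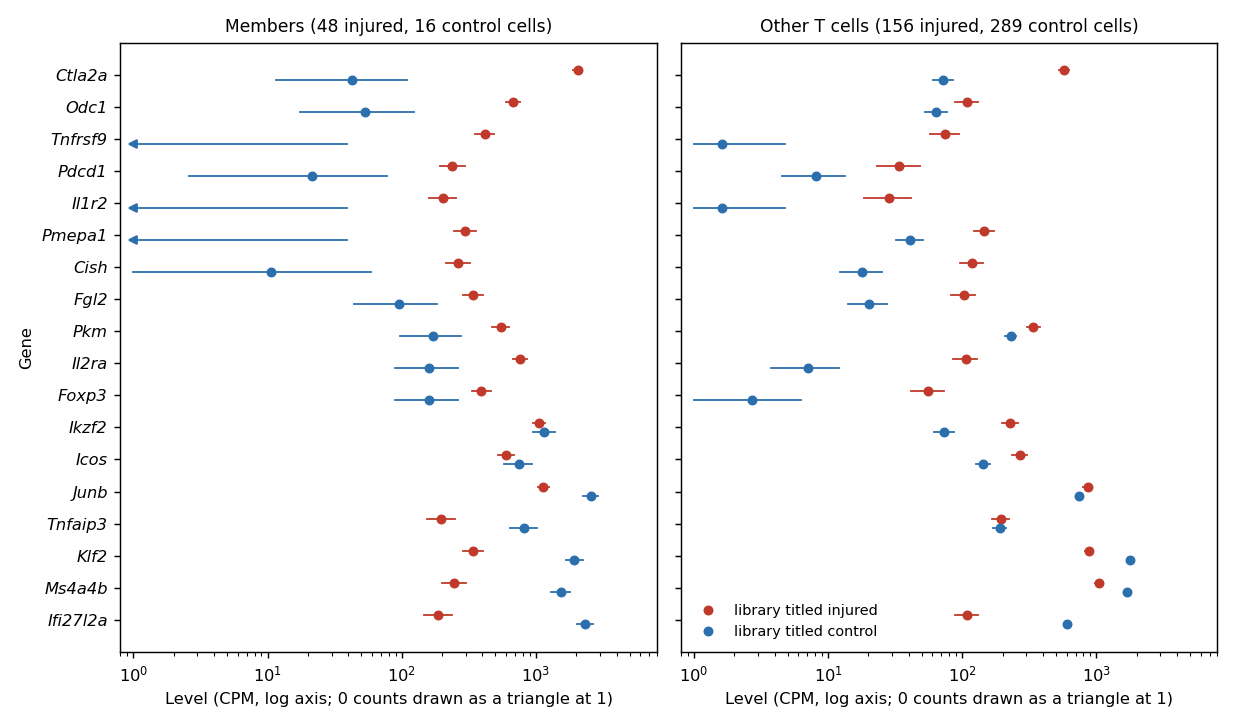
CPM of 18 genes in the injured and control libraries on a log axis, in members (left) and other T cells (right); points are summed levels of 1 library, lines exact 95% Poisson intervals, and triangles at 1 stand for 0 UMIs. Ctla2a, Tnfrsf9 and Il1r2 are higher in the injured library in both panels, while Tnfaip3 and Junb are lower in injured than in control members.

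T cell receptor and antigen presentation genes shifted in both classes. Of 16 T cell identity genes, 8 were lower in injured members and none higher (median -0.61), and 4 were lower in other T cells (median -0.34). Over all genes, 7.06% were lower in members and 0.849% in other T cells. The identity list includes Trbc2, the beta chain constant region, with ratios of 0.485 in members and 0.510 in other T cells. It also holds T cell genes of the rule, such as Cd3e (0.586 and 0.869). Their UMIs chose the cells, so nothing is read from those genes. Among 13 genes of MHC class I presentation, 6 were lower in members (median -0.50) and 2 in other T cells (median -0.11). H2-K1, a class I heavy chain, had ratios of 0.606 (interval 0.530 to 0.696) and 0.753. The centre of all genes lay at 0.14 in members and 0.12 in other T cells, so these lists ran against it.

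Dividing cells were few. Mki67, a marker of cycling cells, had 43 UMIs in 8 injured members, of which 42 were in 7 Foxp3 cells, and 17 UMIs in 2 control members, of which 16 were in 1 cell. Mki67 and Top2a, which works on replicated DNA, occurred together in 3 of 48 injured and 1 of 16 control members, against 4 of 156 and 1 of 289 other T cells. In a list of 14 cell cycle genes, 3 of 12 read were higher and 1 lower in injured members than in other T cells (median 0.36). In control members 9 of 13 were higher (median 0.92), and that median turned to -0.56 when the rule was read after thinning. Over all genes, 5.83% and 9.69% were higher.

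Messages of other cell types were present at low levels in the members. Over the members as a class, the summed level of 7 macrophage markers was 485 CPM (injured) and 319.8 CPM (control), of 6 B cell markers 274 and 416, and of 5 epithelial markers 450 and 1141. Macrophage markers were called lower in members than in other T cells for 6 of 6 genes read in the injured library (median -1.62), where 2.82% of all genes were. That list holds Marco, which the rule bars in members and allows in the other T cells, so its lower level was set in advance. The 5 neutrophil markers summed to 857 CPM in injured and 42.6 in control members, and 1 injured Foxp3 member held 152 S100a8 and 35 Retnlg UMIs. That cell was scored doublet-like and was the 1 injured member with at least 1% of its UMIs from marker lists of other types. The 3 fibroblast markers summed to 5.42 and 0 CPM. Without T cells that had 1% or more of their UMIs from such lists (1 injured member and 6 injured other T cells), the injured median of the macrophage markers went to -0.22, that of the regulatory genes outside the rule to 0.99 and that of the resting genes to -1.48. The part of such messages in the differences between libraries was not tested further.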

How the data were processed

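Each library is a 10x 3' v3 gene expression library of a whole-lung digest, with 2702 (injured) and 2674 (control) barcodes. The authors deposited raw UMI counts per gene and barcode, made with Cell Ranger 4.0.0 per the file headers. The submitters' processing notes name build GRCm38 and, without saying which data they served, DESeq2 (1.26.0, 1.28.1), featureCounts 1.6.3 and STAR 2.7.2c. The extraction protocol in the labels describes bulk RNA, so library details rest on the headers.

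The members and the gene lists were chosen with earlier results of these data known. The rule of the opening paragraph was applied to the deposited counts. Counts were summed per library and class and scaled to CPM, with exact intervals from the Poisson distribution; ratios have exact conditional intervals and shares exact binomial (Clopper-Pearson) intervals, all at 95%. They cover counting error only. No test across animals could be run, since each group had 1 library. Calls used 1.5-fold on CPM + 50 and at least 20 summed UMIs. Where a class had 0 UMIs, folds were taken against 3 UMIs summed over that class and written as "at least".

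Named genes were the rule's genes, up to 5 members of each of 27 lists with the most UMIs in the members and up to 3 with the largest ratio, the 15 highest and 10 lowest of members over other T cells by the smaller of the ratios in both libraries, and the 10 highest and 10 lowest of injured over control members with at least 30 UMIs. Genes below 25% of their level in non-T cells, and ribosomal, mitochondrial and receptor segment genes, were left out of the ranked choice. Zbtb16, Blk and the genes of the route comparison were named after their values were seen. Shares of cells with a UMI were compared after thinning to 2000 UMIs, which left out 12 control other T cells. Doublet-like cells (44 per library) were scored by simulated pairs with 40 neighbours, 2000 genes and 30 components, and removed only as an alternative. Gene positions are from GENCODE M21, where 32158 of 32285 features matched. The summing and calling were tested on simulated data. Python 3.11.15, numpy 2.4.6, scipy 1.17.1, pandas 2.3.3, scikit-learn 1.9.0 and matplotlib 3.10.9 were used. The closing section gives the effect of 19 alternatives. Some genes are not reported here.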

Additional observations from a re-analysis of the deposited data

Results flagged for a closer look

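Of the genes named, 4 were past 1.5-fold in opposite directions in the 2 libraries when members were set against the other T cells. Pmepa1 had a log2 ratio of 0.83 in the injured library and -0.86 in the control library. Trat1, an adaptor of the T cell receptor, had -0.66 and 0.97. The interferon-inducible genes Mndal and Ifi209 had -0.73 and 0.82, and -0.62 and 0.63. The difference between libraries was not tested, and 15 genes of all those read in both libraries ran in opposite directions in this way.

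Some Foxp3 signal lay outside the T cells and outside the rule. In the injured library 15 of 2063 cells with 0 T cell genes (0.727%, interval 0.408 to 1.196) had a Foxp3 UMI, against 1 of 1940 in the control library (0.0515%). Each was a single UMI. Among barcodes that failed the filter on genes and mitochondrial share, 1 of 356 (0.281%) met the gene rule in the injured library and 0 of 332 in the control library. T cells left out only for Cd79a or Marco were 3.43% of injured T cells (7 of 204) and 0 of 305 control T cells. With them the injured share of members would be 27.0%.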

How the results depend on the processing

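No paired analysis was possible because each group had 1 library. Over 19 alternative settings, of which 4 were added after seeing the data, 6021 of 6403 recomputed values stayed within their counting error or call, 364 moved and 18 reversed. Depth limits the control values, with 16 members and 10.7 CPM per UMI.

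The share of members went from 23.5% to 14.7% in the injured and from 5.25% to 2.30% in the control library when a Foxp3 UMI was required, and to 16.1% and 2.79% when the rule was read after thinning to 1000 UMIs. In each setting the injured share was the higher. The 143 genes higher in members of both libraries became 385 with a pseudocount of 10 CPM and 64 with 100 CPM. The 68 lower genes became 117 with Foxp3 required, 130 after thinning, 109 with median-of-ratios scaling, and 211 and 38 with pseudocounts of 10 and 100. For injured against control members, the 809 higher genes became 319 after thinning, 1239 and 391 with those pseudocounts, and 1279 and 277 with minima of 5 and 50 counts. The 277 lower genes became 460 with median-of-ratios scaling, 467 and 172 with those pseudocounts, and 452 and 154 with those minima.

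Log2 values that reversed were mostly those of the thinned rule, which left 14 and 5 members. Members over others in the control library went to -0.56 for the median of the cell cycle list, -0.054 for Ifi27l2a, -0.065 for Mndal and -0.94 for Top2a. In the injured library Bhlhe40 went to -0.22, Cd24a to -2.35 and Wfdc2 to -2.85. Injured over control members went to -0.19 for Tnfrsf4, -0.30 for Rora and -0.50 for Socs2. With Foxp3 required, Cd24a went to -1.60, Wfdc2 to -1.60 and Cd163l1 to -1.13 in the injured library, and Cxcr6 to -1.61, Trdc to -1.33, Tcrg-C1 to -0.31 and the median of the gamma-delta T cell markers to -0.40 in the control library. Cxcr6 went to -0.71 there without T cells with a gamma-delta gene. The cause was not tested beyond what the settings leave out.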

Other observations

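Metabolic and signalling genes of the members were read as lists of their own. Among 12 glycolysis and hypoxia genes, 4 of 10 read were higher in members than in other T cells of the injured library (median 0.43), where 5.83% of all genes were, and 1 of 9 in the control library (median 0.15), near the 9.69% of all genes. Hif1a, the oxygen-sensing factor, was at 363 CPM in injured members and 139 in other T cells, and at 245 and 66.1 CPM in the control library. In interleukin 2 receptor and STAT5 target genes, 5 of 14 were higher and 1 was lower in injured members (median 0.24), and 4 were higher in control members (median 0.34). Beside these counts, 5.83% and 9.69% of all genes were higher, and 2.82% were lower in injured members. For the TGF-beta pathway, 4 of 8 genes were higher in injured than in control members (median 0.58), where 20.6% of all genes were, and 4 of 10 were in other T cells (median 0.36), where 4.54% of all genes were. Helper cytokines and regulators were too sparse to read gene by gene, with 2 of 16 genes past the count minimum in injured and 3 in control cells. Summed over the list, injured Foxp3 members had 4 UMIs (16.4 CPM) and members without Foxp3 37 (296 CPM). Control members had 0 and 11 UMIs (0 and 233 CPM). Other T cells were at 89.6 and 117 CPM.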
